A study of Mus musculus with 2 samples.

Results

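Genes of megakaryocytes and platelets, 9 of the 21938 protein-coding genes annotated on the chromosomes with peaks, were examined for open chromatin in mouse spleen. They are Itga2b, Gfi1b, Gp9, Gp1ba, Pf4, Ppbp, Vwf, Selp and Tubb1, and they were chosen by name for their known roles. Open chromatin had been mapped by DNase-seq, in which the enzyme DNase I cuts accessible DNA and the cuts are sequenced. The spleens came from 2 male mice aged 2 months of the hybrid strain B6CASTF1/J, the first-generation cross of C57BL/6J and CAST/EiJ. Each library has its own animal, numbered 1 and 2 here after the replicate numbers in the labels, although both are listed under 1 shared donor record. No treatment is named, and there is 1 group and no second condition, so no test between groups was possible and each SD, over n = 2, covers these mice alone. Both libraries were mapped to mm10, which represents only the C57BL/6J side of the cross.

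Megakaryocytes are the large polyploid cells that shed platelets, and in the mouse they reside in the red pulp of the spleen as well as in bone marrow. Platelets have no nucleus, so the chromatin of these genes can be seen only in megakaryocytes, their precursors, and other nucleated cells. Factors of the GATA, ETS and RUNX families together with NF-E2 drive platelet genes in this lineage. Some of the 9 genes are also used elsewhere, Vwf and Selp in endothelium and Gfi1b in erythroid cells. In bulk tissue, fewer cells of a type and less accessibility per cell cannot be told apart.

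The longer of the deposited lists had 79246 peaks for animal 1 and 77231 for animal 2, with median heights of 0.888 and 1.05. The height is the authors' signal at a peak, for which no unit is named. A peak counted for a gene when it overlapped the gene body or the 50 kb on either side. It was an own promoter peak within 1 kb of any annotated transcription start site (TSS) of that gene, a neighbour's when within 1 kb of another gene's TSS, and distal otherwise. Under this rule the 9 loci held 93 peaks in animal 1 and 102 in animal 2. Of these, 4 and 5 were own promoter peaks, 40 and 37 lay at promoters of neighbouring genes, and 49 and 60 were distal.

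Promoter peaks were present at 3 of the 9 genes, Itga2b, Gfi1b and Vwf, and these were the same 3 in both animals. Among all protein-coding genes, 61.4% in animal 1, 62.6% in animal 2 and 59.8% in both had one. The transcript whose start carried the peak mattered for the count. Taking only the starts of transcripts that code for protein, Gfi1b alone kept a promoter peak, 1 of 9 in each animal, beside 60.2% and 61.4% of all genes and 58.5% in both. At Itga2b and Vwf the peaks lay inside the gene, at starts annotated for noncoding transcripts. The deposited cut-rate intervals, which are listed only at a false discovery rate (FDR) under 0.05, were read beside the peaks. In neither animal was an interval listed within 1 kb of a coding start for the other 8 genes, whereas 61.2% and 62.5% of all genes had one. At Gfi1b the best FDR was 2.8e-37 in animal 1 and 2.6e-32 in animal 2. The lowest heights in the peak lists were 0.0573 and 0.0407, and no weaker site was listed.

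**Figure D1:**
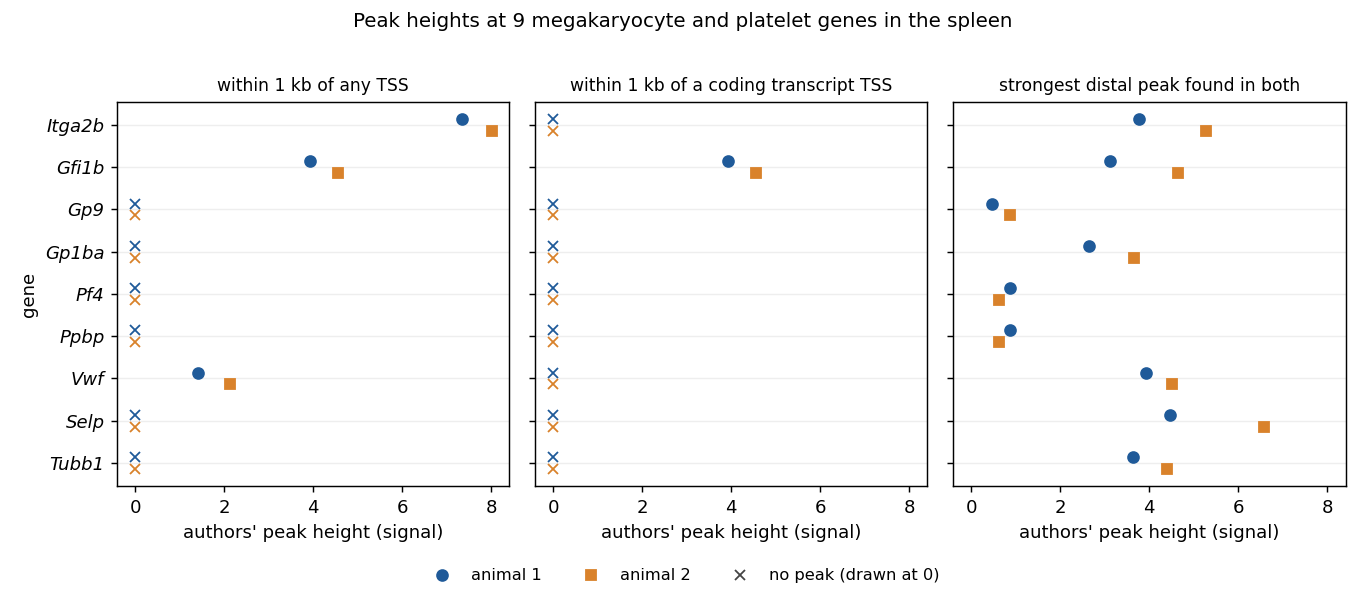
Peak heights (authors' signal, horizontal axis) at the 9 genes in animal 1 (circles) and animal 2 (squares), for own promoter peaks at any TSS, at coding TSS only, and for the strongest distal peak found in both animals; crosses at 0 stand for no peak. Only Gfi1b has a peak in the middle panel, while each of the 9 has a distal peak in both animals, from 0.473 at Gp9 to 6.57 at Selp.

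Gfi1b, a zinc finger repressor needed to make megakaryocytes and red cells, was the only one of the 9 with an open coding promoter. Its peak at chr2:28621821-28622020 covered the TSS and exon 1 and was 3.93 high in animal 1 and 4.56 in animal 2, giving 4.25 ± 0.446 (SD, n = 2). That mean lay at percentile 35.8 among genes with a promoter peak in both animals. Wholly inside this peak lay 4 footprints in animal 1 and 3 in animal 2. A footprint is a short stretch protected from cutting inside an open site. A second, weaker own promoter peak lay upstream, centred at -718 bp in animal 1, with heights of 1.12 and 2.08 and again 4 and 3 footprints. Both sites were thus present in both animals, and both were higher in animal 2. The bases before the start of Gfi1b (RefSeq, GRCm38.p6) and the upstream peak are shown 5′ to 3′ on the gene's strand, since Gfi1b is the gene with an open coding promoter, with footprints of either animal in capitals. Of the 250 promoter bases, the last 38 lay in the peak of animal 1 and the last 18 in that of animal 2.
Gfi1b promoter, chr2:28621983-28622232, minus strand: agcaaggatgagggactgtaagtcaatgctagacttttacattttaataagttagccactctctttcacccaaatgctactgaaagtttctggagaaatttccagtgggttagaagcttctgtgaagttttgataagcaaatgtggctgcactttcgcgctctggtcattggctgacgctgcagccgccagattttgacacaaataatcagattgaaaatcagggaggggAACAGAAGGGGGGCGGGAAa
Gfi1b upstream peak, chr2:28622601-28622800, minus strand: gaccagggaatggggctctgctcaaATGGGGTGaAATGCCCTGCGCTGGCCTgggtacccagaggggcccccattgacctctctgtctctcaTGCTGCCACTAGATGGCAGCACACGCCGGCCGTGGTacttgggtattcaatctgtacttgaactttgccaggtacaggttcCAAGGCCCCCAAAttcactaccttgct
A core was counted in a footprint when it lay inside it widened by 5 bp on each side. In the promoter, the footprint next to the start held GGGCGG, the short core bound by KLF and SP factors, 10 bases before the TSS, in both animals. In animal 2 that footprint ran past the edge of the peak, so it was not among those counted wholly inside. A GATA core, TGATAA, lay 120 bases before the TSS, outside any peak or footprint. In the upstream peak a footprint of both animals held the pattern CC, 3 bases of any kind, AG, 2 bases, GGC, on either strand, which is part of the longer recognition sequence of CTCF. That pattern was chosen after these sequences were seen.

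Gfi1b also had 5 distal peaks in each animal, each found in both. The strongest, at chr2:28585281-28585460 and 36.6 kb downstream of the TSS, was 3.12 and 4.65 high. The next was 29.0 kb downstream, at 2.06 and 3.32. The site at -18.0 kb was 0.630 and 1.24 high and stood beside the much stronger promoter of Tsc1, the hamartin gene, at 8.95 and 11.5. All 9 Gfi1b locus peaks matched between the animals were higher in animal 2, and their median log2 ratio of animal 2 to animal 1 was 0.68. Over all 58277 peaks matched 1 to 1 that median was 0.23, and 71.6% were higher in animal 2, so the direction was the general one.

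Itga2b encodes the integrin αIIb chain, which pairs with β3 as the fibrinogen receptor of platelets. Its coding TSS at position 102469883 of chromosome 11 had no peak, and the strongest own peak lay inside the gene at chr11:102467121-102467340, centred in intron 4. This peak was 7.34 high in animal 1 and 8.01 in animal 2, giving 7.68 ± 0.474 (SD, n = 2), at percentile 57.2 among genes with a promoter peak. It is the highest own promoter peak of the 9 genes in both animals. Its centre was 2.7 kb downstream of the coding TSS in animal 1 and 2.6 kb in animal 2, next to the annotated start of the noncoding transcript Itga2b-209. Each animal had 5 footprints in it. Animal 2 alone had another own peak, 0.964 high, in intron 27 at the start of a further noncoding transcript. That peak was absent from the shorter list, and its best FDR was 0.002. The strongest distal peak of the locus lay outside the gene, 58.0 kb downstream of the coding TSS and beyond peaks at the promoter of the neighbour Grn. It was 3.78 high in animal 1 and 5.28 in animal 2. The closed promoter and the open intragenic site are set side by side, the first with ETS cores in capitals and the second with footprints of either animal in capitals.
Itga2b coding promoter, chr11:102469884-102470133, minus strand: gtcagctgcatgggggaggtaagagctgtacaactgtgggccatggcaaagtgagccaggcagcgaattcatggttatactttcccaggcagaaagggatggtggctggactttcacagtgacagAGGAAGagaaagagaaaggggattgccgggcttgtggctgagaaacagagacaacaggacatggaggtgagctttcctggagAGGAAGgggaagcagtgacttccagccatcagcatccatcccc
Itga2b intragenic peak, chr11:102467121-102467340, minus strand: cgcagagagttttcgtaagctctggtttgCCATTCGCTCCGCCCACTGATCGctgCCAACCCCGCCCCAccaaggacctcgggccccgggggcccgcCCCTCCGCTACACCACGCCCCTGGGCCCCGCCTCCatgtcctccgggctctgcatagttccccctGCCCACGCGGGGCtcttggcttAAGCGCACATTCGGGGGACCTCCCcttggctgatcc
The coding promoter held ETS cores 125 and 43 bases before the start and no GATA core. The intragenic peak held neither. It held the GGGCGG core on the opposite strand 3 times, and 2 of these counted as in footprints of both animals. Of the 2, 1 lay partly beyond the footprint edge in animal 2. Whether the intragenic site serves Itga2b or another transcript was not tested.

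Vwf encodes von Willebrand factor, which bridges platelets to the injured vessel wall and is made by endothelium and megakaryocytes. No peak lay at its 5′ coding start. Its own promoter peak, at chr6:125603341-125603540, was 56.7 kb inside the gene, over exon 14 of the longest coding transcript and at the start of the noncoding transcript Vwf-206. It was low, 1.41 in animal 1 and 2.14 in animal 2, giving 1.77 ± 0.514 (SD, n = 2), at percentile 18.9 among genes with a promoter peak. The gene body held more than this: 10 of 13 distal peaks in animal 1 and 9 of 10 in animal 2 were inside Vwf. Of these, 3 formed a group in intron 6. The strongest, at chr6:125573301-125573520 and 26.6 kb from the TSS, was 3.92 and 4.51 high, with 6 and 5 footprints. Its neighbours in that intron, at 25.7 and 26.1 kb, were 1.65 and 2.17, and 1.52 and 1.13. Peaks in intron 12 (1.60 and 2.04), intron 10 (1.15 and 1.03), intron 15 (1.07 and 1.11) and intron 38 (0.824 and 1.15) were also present in both animals. The intron 6 site is printed as the strongest site of Vwf, with footprints of either animal in capitals.
Vwf intron 6 peak, chr6:125573301-125573520, plus strand: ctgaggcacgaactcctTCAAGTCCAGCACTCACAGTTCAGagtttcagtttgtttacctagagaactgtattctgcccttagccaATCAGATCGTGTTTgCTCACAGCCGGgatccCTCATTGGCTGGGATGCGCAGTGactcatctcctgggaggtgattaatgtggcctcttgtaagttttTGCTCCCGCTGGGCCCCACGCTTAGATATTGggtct
It held TGACTCA, the core shared by AP-1 and NF-E2, and no GATA or ETS core. Most of TGACTCA lay beyond the footprint edge in animal 1, where it was counted only through the widening by 5 bp. In animal 2 it was not counted. The RefSeq promoter table used here matched 8 of the 9 genes by symbol, all but Vwf.

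Selp encodes P-selectin, an adhesion receptor stored in the granules of platelets and endothelial cells. It had no promoter peak, but it had the most distal peaks of the 9, 14 in animal 1 and 24 in animal 2, against a median of 5 for the 9 genes and 3 for all genes in each animal. Of these, 6 lay inside the gene in each animal, in introns 8, 9 and 14 and over exon 16. The highest, in intron 9 at chr1:164138741-164138900 and 23.6 kb from the TSS, was 4.46 and 6.57 high, at percentiles 97.0 and 98.2 of distal peaks. An intron 8 site at 20.9 kb followed, with 4.02 and 3.26. Selp was also the locus where the animals differed most in number. A run of 11 weak peaks over 7.11 kb upstream of the gene was called in animal 2 only. Their heights were 0.217 to 0.625, the best FDR was 2.2e-09, and no interval was listed there in animal 1. Without this run the distal counts would be 14 and 13.

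Gp1ba encodes the platelet receptor chain that binds von Willebrand factor, and Gp9 a small partner chain of the same complex. Neither had a promoter peak in either animal. Gp1ba lies among widely expressed genes: 16 of its 22 locus peaks in animal 1 and 17 of 23 in animal 2 were at neighbours' promoters, such as Slc25a11 with Rnf167 (11.7 and 11.9) and Spag7 (12.1 and 14.6). Its strongest distal peak, at chr11:70605281-70605480, was at -33.7 kb inside the kinase gene Mink1, with heights of 2.64 and 3.65. The remaining distal peaks found in both animals were at -9.4 kb (1.15 and 1.18), inside the profilin gene Pfn1 (up to 2.39 and 1.78) and inside Camta2 (2.56 and 2.32). At Gp9 the site nearest the start was a weak peak over exon 2, 1.5 kb from the TSS, 0.473 high in animal 1 and 0.876 in animal 2. The only other distal peak, 0.552 high, was in animal 1 alone. The remaining 7 peaks of animal 1 and 3 of animal 2 lay at starts of the neighbours Rab43 and 9930120I10Rik, the highest 33.8 kb away at 8.54 and 10.1. The promoter of Gp1ba is printed as the one member sequence in which both kinds of lineage core lie before the start, with GATA and ETS cores in capitals (RefSeq, GRCm38.p6).
Gp1ba promoter, chr11:70638872-70639121, plus strand: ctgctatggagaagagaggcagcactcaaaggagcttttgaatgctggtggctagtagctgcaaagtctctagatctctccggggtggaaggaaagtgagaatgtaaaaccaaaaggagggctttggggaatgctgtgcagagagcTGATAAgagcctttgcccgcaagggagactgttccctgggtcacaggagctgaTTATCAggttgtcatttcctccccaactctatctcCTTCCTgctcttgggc
The nearer of its 2 GATA cores begins 51 bases before the start, and its ETS core 16 bases before it. No peak or listed interval covered them in either animal.

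Pf4 and Ppbp encode chemokines of the platelet alpha granule, platelet factor 4 and the precursor of CXCL7, and they are neighbours in the CXC cluster of chromosome 5. Their surroundings were the emptiest of the set, with the same 2 peaks counted for both genes in each animal. The one site found in both animals, at chr5:90742121-90742340, was at -30.2 kb from the TSS of Pf4 and -26.3 kb from that of Ppbp. It was 0.867 high in animal 1 and 0.625 in animal 2, at percentiles 57.7 and 35.7 of all distal peaks. It held an ETS core partly beyond the footprint edge in each animal, counted for both through the widening by 5 bp, and a GATA core outside footprints. The other peak lay near Cxcl3, 0.394 high in animal 1 and 0.244 in animal 2, but at positions that did not overlap.

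Tubb1 encodes β1-tubulin, the tubulin of the platelet marginal band. It had no promoter peak and no peak in its gene body. Its strongest distal peak, at chr2:174436381-174436580, was at -14.2 kb inside the cathepsin gene Ctsz and was 3.63 and 4.39 high. A site at -12.9 kb in the same gene was 3.46 and 3.65. The ETS core CGGAAG lay in a footprint of the former in animal 1. In animal 2 it lay partly beyond the footprint edge and was counted through the widening. The highest peak of all 9 loci was at the promoter of Prelid3b, a neighbour of Tubb1, at 19.0 and 22.5.

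**Figure D2:**
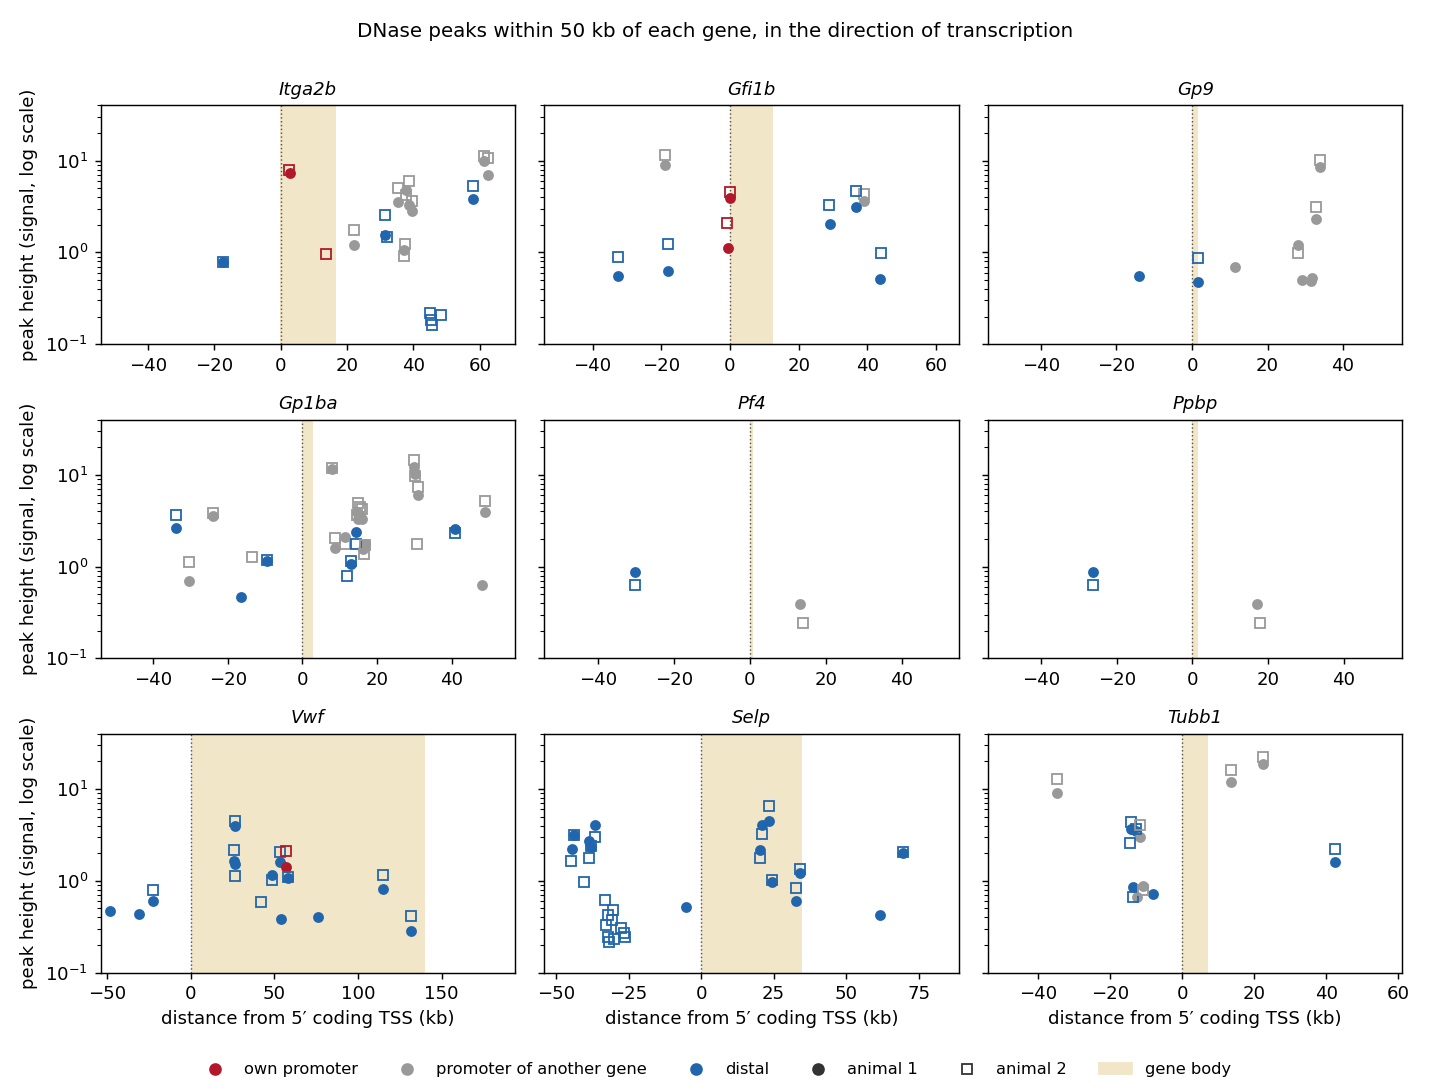
Height (log scale) of every peak within 50 kb of each gene against the distance of its centre from the 5′ coding TSS in kb, positive in the direction of transcription, with filled circles for animal 1 and open squares for animal 2. Own promoter peaks (red) appear at Itga2b, Gfi1b and Vwf, neighbours' promoters (grey) reach 22.5 at Tubb1, and the 11 weak peaks of animal 2 stand left of Selp.

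Over the 9 loci together, 77 of the 93 peaks in animal 1 (82.8%) were found in the other mouse, and 78 of the 102 in animal 2 (76.5%). For all peaks these shares were 76.5% and 79.0%, so the loci were close to the whole lists. Of the distal peaks, 40 of 49 (81.6%) and 40 of 60 (66.7%) were found in the other animal, beside 71.9% and 76.9% of all distal peaks. Without the run of 11 weak peaks upstream of Selp, the share in animal 2 was 40 of 49 (81.6%). That run was left out after seeing the data. It was called in animal 2 only, so leaving it out could only raise the share, and the share of all distal peaks had no such removal. Footprints were present in 79 peaks (84.9%) and 90 peaks (88.2%), beside 81.2% and 83.3% of all peaks. The median height of the distal peaks was 1.15 and 1.12, against 0.731 and 0.842 for distal peaks of the whole genome. By place, 17 distal peaks of animal 1 and 16 of animal 2 were inside 1 of the 9 genes, 18 and 26 inside another protein-coding gene, and 14 and 18 between genes. The 40 distal peaks matched 1 to 1 had a median log2 ratio of animal 2 to animal 1 of 0.12, and 29 (72.5%) were higher in animal 2. Over all matched distal peaks the median was 0.20, and 66.3% were higher in animal 2.

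The promoters of the set were poor in CpG, a property that the choice of members did not use. The observed to expected CpG ratio in the 500 bp on each side of the 5′ coding TSS was under 0.4 for 8 of the 9 genes, all but Pf4 at 0.403, and its median was 0.22. Over all genes, 39.5% were under 0.4 and the median was 0.56. Low CpG content went with closed promoters across the genome: 20.6% of genes under 0.4 had a coding promoter peak in both animals, against 83.2% of the others. The 1 of 9 members with such a peak, Gfi1b, had a ratio of 0.320. The other ratios under 0.4 ran from 0.092 at Gp1ba to 0.238 at Selp. How far CpG content accounts for the low count at these genes was not tested.

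**Figure D3:**
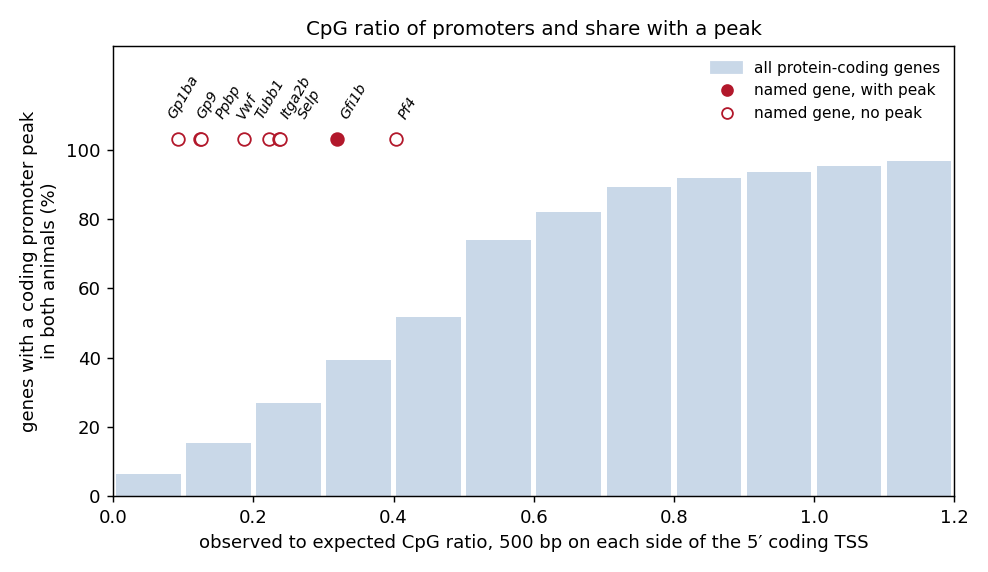
Share of all protein-coding genes with a coding promoter peak in both animals (bars, %) by CpG ratio in bins of 0.1, with the ratio of each of the 9 genes drawn as a circle above, filled where the gene had such a peak. The bars rise from 6.45% in the lowest bin to 96.9% in the highest, and the 9 genes lie between 0.092 and 0.403 with only Gfi1b filled.

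Genes of the wider platelet programme were counted in the same way, from 4 lists that hold none of the 9 genes. Together 43 of 58 (74.1%) had a promoter peak in both animals, beside 59.8% of all protein-coding genes and 3 of the 9. Taking coding starts only gave the same counts for the 4 lists. Of the platelet surface receptors, 8 of 16 were open in both animals. Itgb3, the β3 partner of Itga2b, was 6.78 and 7.09 high at any start and 4.08 and 7.09 at coding starts. At any start, the thromboxane receptor Tbxa2r had 3.31 ± 0.145 and the collagen receptor chain Itga2 had 2.34 ± 0.409 (SD, n = 2). Gp1bb, which completes the receptor of Gp1ba and Gp9, had no promoter peak, and the collagen receptor Gp6 had none. Gp5 had 0.516 in animal 2 alone. Of the granule and secretion genes, 7 of 11 were open, led by Vps33b (10.4 ± 3.29), Nbeal2 (9.46 ± 0.480) and Stxbp2 (6.11 ± 0.755), which serve granule formation and release in several blood cells. The cargo genes of the list were mixed: Srgn (4.36 ± 1.23), Thbs1 (2.41 ± 0.278) and Serpine2 (0.721 ± 0.372) were open in both animals, while F5, F13a1 and Mmrn1 had no promoter peak.

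Of the cytoskeletal and signalling genes 15 of 16 were open in both animals, with Myh9 (16.1 ± 3.54), Rasgrp2 (13.6 ± 1.30) and Tln1 (10.7 ± 0.316) the highest. The peak of Tln1 is shared with Creb3. All 3 are also used by other leukocytes. Of the transcription factors 13 of the 15 annotated genes were open. The highest were Zfpm1, the GATA cofactor FOG1, at 20.1 ± 4.42, Ikzf5 at 18.4 ± 1.63 with a peak shared with Acadsb, and Srf at 12.2 ± 0.0788. Of the factors named whatever their value, Runx1 had 6.66 ± 0.561, Nfe2 2.97 ± 1.02, Fli1 2.41 ± 0.397 and Tal1 0.674 ± 0.0501. Gata1, the main GATA factor of megakaryocytes and erythroid cells, had no promoter peak in either animal. Gata2 had one of 0.550 in animal 2 only.

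**Figure D4:**
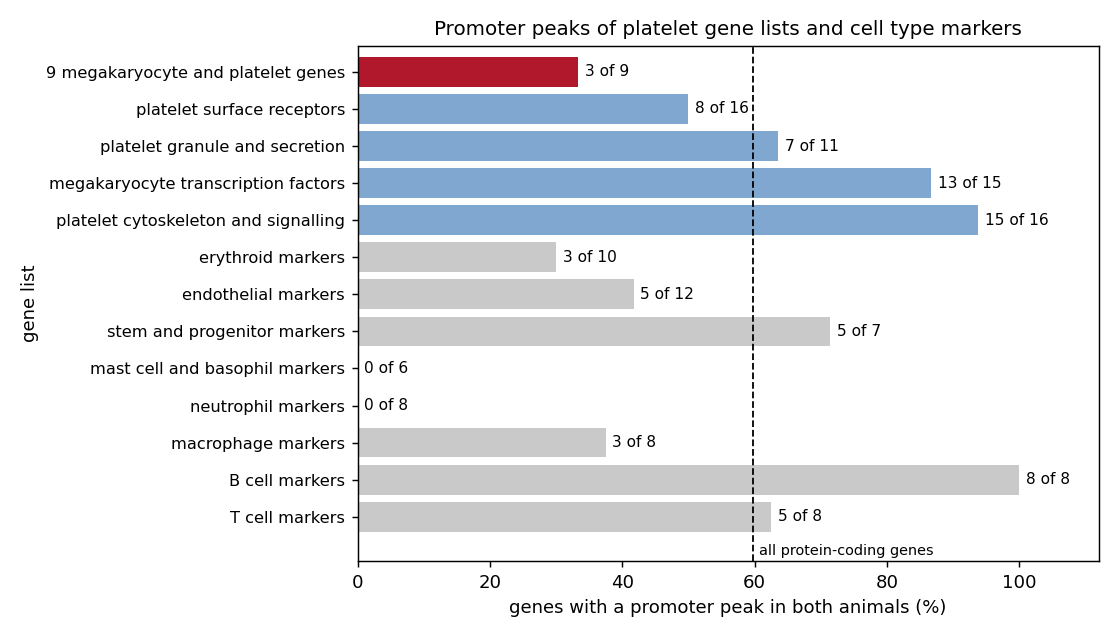
Share of each gene list with a promoter peak within 1 kb of any TSS in both animals (%), with the counts beside the bars, for the 9 genes (red), 4 lists of related platelet genes (blue) and markers of other spleen cells (grey). The dashed line marks all protein-coding genes at 59.8%; the 9 genes stand at 3 of 9 and B cell markers at 8 of 8.

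Markers of the other cells in which these genes are used were measured the same way. Of 12 endothelial markers, 8 were open in animal 1 and 5 in animal 2, and those 5 were open in both. They were Icam2 (3.59 ± 0.115), Pecam1 (3.39 ± 0.256, a peak shared with Milr1), Cdh5 (2.58 ± 0.413), Kdr (0.823 ± 0.0312) and Erg (0.472 ± 0.110). Tek, Sox18, Stab2 and Sele had no promoter peak. Of 10 erythroid markers, 3 were open in both, among them Tfrc (15.3 ± 0.585), which all dividing cells use, and Epor (0.984 ± 0.328). The globin genes and Alas2 had none. Stem and progenitor markers were open at 5 of 7, mast cell and basophil markers at 0 of 6, neutrophil markers at 0 of 8, macrophage markers at 3 of 8, T cell markers at 5 of 8 and B cell markers at 8 of 8. The part of endothelial and erythroid cells in the peaks at Vwf, Selp and Gfi1b was not tested.

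Short core strings were counted on both strands of the 300 bases from 250 before to 50 after the start in RefSeq, for the 8 matched genes. The ETS core, AGGAAG with the variant CGGAAG, was in 6 of them, all but Gfi1b and Ppbp, beside 46.5% of all promoters in the table. The GATA core, AGATAA with the variant TGATAA, was in 3 of them, Gfi1b, Gp1ba and Pf4, beside 18.6%. Both kinds were in 2, Gp1ba and Pf4, beside 7.70%. An E-box, CAGCTG or its variant CAGATG, was in 4, beside 30.6%. The MEIS core TGACAG was in 3, beside 19.2%, and a RUNX core, TGTGGT or its variant TGCGGT, in 1, Gp9, beside 22.4%. The AP-1 and NF-E2 core TGAGTCA, the GFI1 core AAATCAC, and the CTCF cores AGGGGGC and its variant AGGTGGC were in none, beside 5.20%, 3.20% and 16.0%. The longer CTCF pattern was in 2, Selp and Tubb1, beside 8.61%. The KLF and SP cores, CCACACC and the unrelated GGGCGG, were in Gfi1b alone, beside 40.6%. No core of one group was contained in that of another. With 8 promoters these counts are a description only.

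In the central 150 bp of the distal peaks, a GATA core was present in 7 of 49 (14.3%) in animal 1 and 6 of 60 (10.0%) in animal 2. All distal peaks of the genome had 8.12% and 7.13%. In a footprint, a GATA core was found in 2 and 1 of these peaks. Counted by footprint, in own promoter and distal peaks of the 9 loci, 2 of 110 (1.82%) held one in animal 1. In animal 2 it was 1 of 151 (0.662%). Of all footprints, 0.526% and 0.540% held one, and counts of 2 and 1 are too few to compare with these shares. ETS cores were in 40.8% and 43.3%, beside 37.7% and 34.8% of all distal peaks. CTCF cores were in 18.4% and 15.0%, beside 16.6% and 18.3%, and the longer CTCF pattern in 28.6% and 21.7%, beside 20.8% and 22.7%. The longer pattern was chosen after some of these sequences were seen.

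The footprints of the strongest distal sites were also searched. There were 8 distinct peaks that were the strongest of their gene among those found in both animals, with Pf4 and Ppbp sharing 1. In 4 of the 8, those of Itga2b, Gfi1b, Gp1ba and Selp, a footprint of both animals held the longer CTCF pattern, and in 3 of them, all but Gfi1b, also the shorter CTCF core. The longer pattern was chosen after the sequences of these 8 peaks were seen, so their count is a description only. Among the highest 10% of distal peaks of the genome, 27.8% in animal 1 and 38.3% in animal 2 held the longer pattern in their central 150 bp. That is a different measure, since the 8 were searched in footprints anywhere in the peak. Not all of the 8 are among the highest 10%: the Gp9 site was at percentiles 28.5 and 51.7 of distal peaks. A GATA core was in the footprints of none of the 8 peaks. The 4 sites are printed for comparison on their gene's strand, with footprints of either animal in capitals.
Itga2b distal peak, chr11:102411821-102412020, minus strand: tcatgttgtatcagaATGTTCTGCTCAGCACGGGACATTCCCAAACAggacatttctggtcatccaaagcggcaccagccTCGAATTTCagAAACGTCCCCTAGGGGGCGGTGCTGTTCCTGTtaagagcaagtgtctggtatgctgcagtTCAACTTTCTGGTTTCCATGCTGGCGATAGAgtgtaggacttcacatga
Gfi1b distal peak, chr2:28585281-28585460, minus strand: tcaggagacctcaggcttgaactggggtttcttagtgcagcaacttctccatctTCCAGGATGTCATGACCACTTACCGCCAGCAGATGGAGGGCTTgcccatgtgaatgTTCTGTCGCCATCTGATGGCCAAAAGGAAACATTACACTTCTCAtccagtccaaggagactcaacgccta
Gp1ba distal peak, chr11:70605281-70605480, plus strand: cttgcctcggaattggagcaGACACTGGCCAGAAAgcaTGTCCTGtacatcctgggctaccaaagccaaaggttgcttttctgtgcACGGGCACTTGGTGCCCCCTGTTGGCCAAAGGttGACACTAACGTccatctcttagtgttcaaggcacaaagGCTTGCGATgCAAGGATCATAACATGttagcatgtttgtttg
Selp intron 9 peak, chr1:164138741-164138900, plus strand: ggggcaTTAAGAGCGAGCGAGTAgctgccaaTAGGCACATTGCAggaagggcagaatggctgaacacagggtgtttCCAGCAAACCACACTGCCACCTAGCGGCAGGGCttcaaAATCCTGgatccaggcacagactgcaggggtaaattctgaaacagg
The pattern begins at base 98 of the Itga2b site, 118 of the Gfi1b site, 100 of the Gp1ba site and 92 of the Selp site, counted from 1 at the 5′ end. In the Itga2b site it overlaps a KLF and SP core, and in the Gfi1b site an E-box, so these matches are not separate. The Selp site also had a RUNX core in footprints of both animals, 84 bases from its 5′ end. A match is a description of the letters and does not show that a factor was bound.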

How the data were processed

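DNase-seq libraries of 2 spleens were deposited as processed files. Per the labels and file listings, reads were mapped to mm10 and each library was processed alone. Which aligner and callers were used is not given in the sources used here. In the deposited peak lists the height is a signal whose steps, 0.00716 in animal 1 and 0.00679 in animal 2, would mean 139.6 and 147.3 M cuts if it counts cuts per M. The deposited cut-rate files hold a q-value, the FDR of each short interval, and list none above 0.0500. The deposited footprint files hold positions and a constant p-value column. The longer of the 2 peak lists per library was used.

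Genes and TSS are from GENCODE M21, and sequences from RefSeq GRCm38.p6, which has the coordinates of mm10. No peak lay past a chromosome's end. Peaks, footprints lying wholly inside peaks, and core strings were counted in Python 3.11.15 with numpy 2.4.6, pandas 2.3.3, pysam 0.24.0 and samtools 1.23.1. The functions were tested on simulated data. Peaks of the animals were called the same when they overlapped by 1 bp or more. The CpG ratio is CpG count times length over the product of C and G counts. The percentile of a promoter height is among genes with a promoter peak in both animals.

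The members and lists were chosen with earlier results of these data known. The text names all 9 genes, their own promoter peaks, their strongest distal peak found in both animals, the 3 highest genes of each platelet list and 8 further genes set in advance, Gp1bb, Gp5, Itgb3, Gata1, Nfe2, Fli1, Runx1 and Tal1. Other genes named, and other peaks given, were chosen after their values were seen. Of 135 list genes 134 were found. Alternatives were the shorter peak list, promoter widths, TSS sets, flanks, overlaps, footprint rules, motif windows and each animal alone. Values of some genes in the lists and loci are not reported here.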

Additional observations from a re-analysis of the deposited data

How the results depend on the processing

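The count of 3 genes with an own promoter peak in both animals was also 3 with the shorter list, within 500 bp, by peak midpoint, and in each animal alone (3 to 3). It was 5 within 2 kb, where Gp9 (0.674 mean height) and Selp (1.01) were added. It was 1, Gfi1b, with the most 5′ TSS only and 1 with TSS of coding transcripts. The mean of 97.5 locus peaks per animal became 29 with flanks of 10 kb and 154 with 100 kb, and that of 54.5 distal peaks became 19 and 83.5. The shorter list left 77.5 and 39. On average 79.6% of locus peaks were found in the other animal, 71.9% when 50% of both peaks had to overlap and 85.6% with the shorter list. Of the distal peaks of animal 2, 66.7% were found in animal 1, and 81.6% without the run upstream of Selp, an alternative chosen after seeing the data. The mean of 6.50 distal peaks with a GATA core became 1.5 when it had to lie in a widened footprint. The promoter height of Itga2b was 4.15 when the peak nearest a TSS was taken, since in animal 2 that was the intron 27 peak. Without animal 1 or animal 2 the locus peaks were 93 to 102, the distal peaks 49 to 60 and the footprints 224 to 273. The other alternatives kept their counts within 1.5 times, and 37 of 49 in all stayed in that range or within the spread of the animals. The 37 include promoter heights with 1 animal left out, which could not have moved. With 2 animals, the value of each always lies within the SD around their mean. Except where the alternative itself changes what is counted, the cause was not tested. With 2 animals, heights near the lowest listed values and peaks in 1 animal alone are the least certain. No paired analysis was possible because there is 1 group and no comparison between groups.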
